A study of Mus musculus with 6 samples.

Results

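The Hippo pathway and angiomotin genes described here are Yap1, Wwtr1, Tead1, Tead2, Tead3, Tead4, Amot, Amotl1, Amotl2 and Lats1, 10 of the 28738 genes in the authors' deposited table. They were listed by symbol and selected on their place in the pathway and on their log2 differences between Uba3 conditional knockout and control oocytes, which were already known, so those differences are given as descriptions. All 10 symbols matched 1 Ensembl gene each, and 9 of the 10 passed the filter on low values (a linear value of 10 or more in at least 3 libraries), which kept 17450 genes in all. Tead4 did not pass.

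RNA was sequenced from mouse oocytes that had finished growth and still held an intact germinal vesicle, the large nucleus of meiotic prophase arrest. The control group had 3 libraries with the genotype label Control. The Uba3 cKO group had 3 libraries with the genotype label Uba3 cKO, and both groups carry the strain label C57/Bl6/N;129SvEv7. Each library came from a pool of about 150 oocytes. The labels name neither the Cre driver, nor the deleted part of Uba3, nor the control genotype in full, nor the age of the mice, nor any treatment. The UBA3 protein catalyses the activation of NEDD8, a relative of ubiquitin that is joined to cullins and switches on cullin-RING ubiquitin ligases.

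In the Hippo pathway, the kinases LATS1 and LATS2 phosphorylate the coactivators YAP (Yap1) and TAZ (Wwtr1), which then stay in the cytoplasm. Unphosphorylated YAP and TAZ enter the nucleus and act through the TEAD transcription factors, which bind DNA. Angiomotins are junction and actin-binding scaffolds that hold YAP outside the nucleus and help LATS kinases to act on it. In the early mouse embryo this pathway separates trophectoderm from inner cells, and YAP stored in the egg is used after fertilization.

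Values are the authors' normalized log2 values, library depth is unknown, and differences are Uba3 cKO minus control on that scale. Uba3 itself stood at 11.37, 11.46 and 11.34 in the controls (replicates 1, 2 and 3) against 10.03, 10.16 and 10.36 in the knockouts, a difference of -1.21 (SE 0.10, adjusted p = 2.07e-05 in limma). Libraries correlated at 0.997 to 0.998 within a group and at 0.995 to 0.997 across the groups (Pearson's r over the kept genes, which are not independent replicates). The defining oocyte genes Gdf9, Bmp15, Zp2 and Zp3 had mean control values of 16.85, 17.05, 16.32 and 14.57, and all 12 oocyte markers passed the filter. Markers of other ovarian cells were also present, and their values are given beside the results below. Whether each pool had its own animals is not in the labels, so any p-value reflects spread among these pools and that spread may be technical.

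A pair of angiomotin genes was higher in Uba3 cKO oocytes, and the other members were not called. Calls required an adjusted p below 0.05 (limma over all 17450 genes, Benjamini-Hochberg). Amot rose by 0.73 (SE 0.11, a 1.66-fold higher level) and Amotl1 by 0.44 (SE 0.09, 1.36-fold). The other 7 tested members had differences between -0.20 and 0.24. Thus 2 of 9 members were called, both higher, where 8.14% of all tested genes were called, 5.64% higher and 2.5% lower. The median difference was 0.09 over the 9 members and -0.01 over all tested genes. Nothing is read from these counts, because the members were proposed with this contrast in view.

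**Figure D1:**
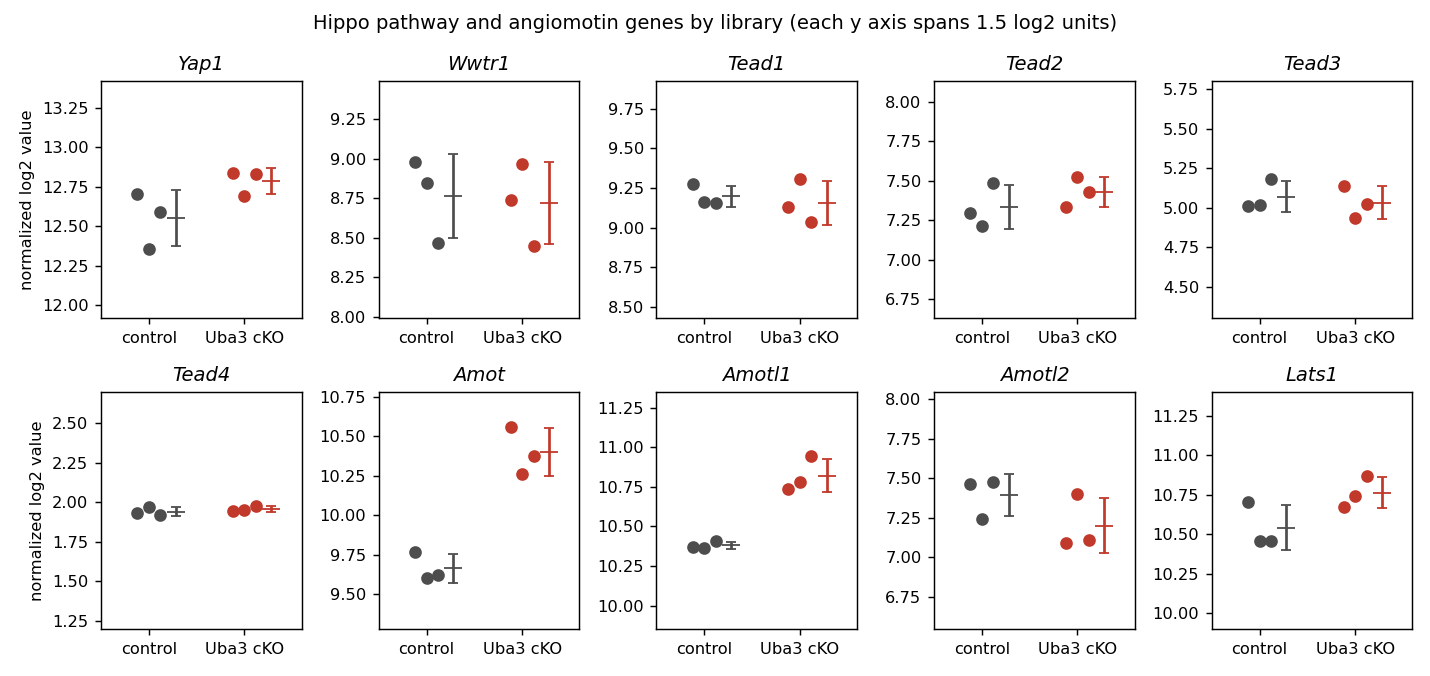
Normalized log2 value (y axis, 1.5 log2 units in each panel) of each of the 10 genes in 3 control (grey) and 3 Uba3 cKO (red) libraries, with the group mean and SD beside the points. The groups stand apart for Amot (9.60 to 9.77 against 10.26 to 10.56) and Amotl1 (10.37 to 10.41 against 10.74 to 10.94) and overlap for the other 8 genes.

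Amot (ENSMUSG00000041688, chromosome X) encodes angiomotin, the founding member of the family, which binds the WW domains of YAP. Its value was 9.77, 9.60 and 9.62 in control replicates 1, 2 and 3, against 10.56, 10.26 and 10.38 in the same-numbered knockouts. Every Uba3 cKO library lay above every control library, with means of 9.67 ± 0.09 (SD, n = 3) and 10.40 ± 0.15 (SD, n = 3). Groups did not overlap in 27.9% of all tested genes, 15.1% with Uba3 cKO higher and 12.8% with Uba3 cKO lower. Ordered from the largest rise, Amot was number 140 of the 17450 genes.

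Amotl1 (ENSMUSG00000013076, chromosome 9) encodes angiomotin-like 1, a junction scaffold that also binds YAP. It had 10.37, 10.37 and 10.41 in the control pools, against 10.74, 10.78 and 10.94 in the knockout pools. The control libraries lay within 0.04 of each other, and all Uba3 cKO libraries were above them. The means were 10.38 ± 0.02 (SD, n = 3) and 10.82 ± 0.11 (SD, n = 3), and Amotl1 was number 567 from the largest rise. Without Uba3 cKO replicate 3 the difference was 0.38 and Amotl1 was not called (adjusted p = 0.0647 in limma). It was called with any other 1 library left out, with an adjusted p of 0.0484 in limma without control replicate 3. Each of these fits had fewer samples.

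Amotl2 (ENSMUSG00000032531, chromosome 9) encodes angiomotin-like 2, which in other tissues is itself a well-known target gene of YAP and TAZ. It stood at 7.47, 7.24 and 7.48 in control and at 7.09, 7.40 and 7.11 in Uba3 cKO replicates 1, 2 and 3. Uba3 cKO replicate 2 lay within the control range and the other two lay below it. The difference was -0.20 (SE 0.11, 95% interval -0.44 to 0.05), and Amotl2 was not called.

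The family members can be set against each other inside each library. The log2 value of Amot minus that of Amotl2 was 2.30, 2.36 and 2.14 for controls 1, 2 and 3, against 3.47, 2.86 and 3.27 for knockouts 1, 2 and 3. The same quantity for Amotl1 minus Amotl2 was 2.91, 3.13 and 2.93 in control and 3.65, 3.38 and 3.84 in Uba3 cKO. Both ratios were wider in every Uba3 cKO library than in any control library. Amot and Amotl1 were known to be higher, so these ratios add no separate evidence. Amot minus Amotl1 was -0.60, -0.76 and -0.79 in control and -0.18, -0.52 and -0.57 in Uba3 cKO, so Amot was the lower of the pair in every library on this scale.

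Levels of different genes were compared as the linear value (2 to the power of the log2 value) per kilobase of annotated exon. On that scale the 3 angiomotins summed to 256 ± 7.86 (SD, n = 3) among controls and 365 ± 14.97 (SD, n = 3) among knockouts. The sum was 264, 248 and 257 in control and 371, 348 and 376 in Uba3 cKO, with no overlap. Amotl1 made up 51.8% ± 1.62 (SD, n = 3) of the control sum and 49.4% ± 3.26 (SD, n = 3) of the Uba3 cKO sum. Amot made up 37.8% ± 1.51 (SD, n = 3) and 44.2% ± 3.69 (SD, n = 3), and Amotl2 10.5% ± 0.687 (SD, n = 3) and 6.46% ± 1.09 (SD, n = 3). The groups overlapped for the share of Amotl1 and stood apart for the shares of Amot and Amotl2. These sums contain Amot and Amotl1, which were known to be higher, so they add no separate evidence.

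**Figure D2:**
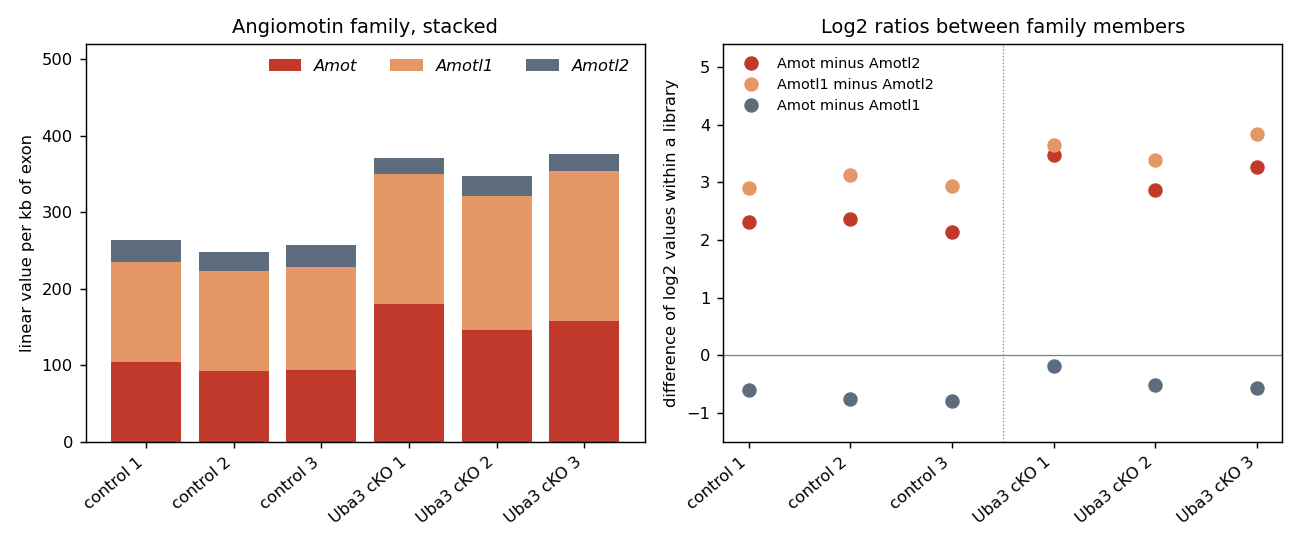
Left, linear value per kilobase of exon of Amot, Amotl1 and Amotl2 stacked for each of the 6 libraries, with sums of 248 to 264 in control and 348 to 376 in Uba3 cKO. Right, difference of log2 values between 2 family members within each library, where Amot minus Amotl2 lies between 2.14 and 2.36 in control (left of the dotted line) and between 2.86 and 3.47 in Uba3 cKO.

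The stretches of 250 bases before the transcription start of the 3 angiomotins are shown because 2 of these genes were higher and the third was not. They are RefSeq promoter entries on GRCm38.p6, a build earlier than the GRCm39 named in the submitters' processing notes, and each is written 5′ to 3′ on the gene's strand. Capitals mark GGAATG or its reverse complement CATTCC, the core of the TEAD binding motif, searched on both strands. Amot lies on the minus strand (chrX:145487640-145487889), as does Amotl1 (chr9:14615001-14615250), and Amotl2 lies on the plus strand (chr9:102717554-102717803).
Amot: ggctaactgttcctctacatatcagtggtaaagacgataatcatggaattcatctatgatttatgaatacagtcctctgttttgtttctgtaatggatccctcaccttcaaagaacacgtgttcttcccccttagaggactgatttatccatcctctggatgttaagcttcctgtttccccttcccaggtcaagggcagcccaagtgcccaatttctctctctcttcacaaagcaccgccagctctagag
Amotl1: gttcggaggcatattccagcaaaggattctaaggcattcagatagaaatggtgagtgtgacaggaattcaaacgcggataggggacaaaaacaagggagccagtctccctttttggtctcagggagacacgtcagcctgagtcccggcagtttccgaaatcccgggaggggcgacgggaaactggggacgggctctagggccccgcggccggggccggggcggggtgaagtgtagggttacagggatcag
Amotl2: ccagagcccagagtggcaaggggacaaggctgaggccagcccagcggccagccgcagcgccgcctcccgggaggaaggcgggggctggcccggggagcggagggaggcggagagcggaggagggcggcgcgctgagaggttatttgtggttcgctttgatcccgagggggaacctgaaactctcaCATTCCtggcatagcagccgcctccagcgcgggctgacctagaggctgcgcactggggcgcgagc

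Only the Amotl2 stretch of these 3 holds the motif, 65 to 60 bases before the start. The Amot stretch has a GC content of 44.8% with 3 CpG dinucleotides, the Amotl1 stretch 58.4% with 15 and the Amotl2 stretch 70.4% with 21. Among members, 8 of 10 had an entry (Tead1 and Tead4 had none), and 4 of those 8 held the motif in at least 1 entry, namely Yap1, Wwtr1, Tead3 and Amotl2. Over all 27025 genes with an entry, 14.4% held it in at least 1 stretch of the same length, and 12.6% of all 32851 entries did. A match is a string of letters, not a bound site, and the absence of these letters from 250 bases says nothing about TEAD factors elsewhere. The motif and its neighbours in Yap1 (from chr9:8004597-8004846, minus strand), Wwtr1 (from chr3:57575911-57576160, minus strand) and the second Tead3 entry (from chr17:28350601-28350850, minus strand) are shown because they are the other members that hold it.
Yap1: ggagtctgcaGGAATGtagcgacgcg
Wwtr1: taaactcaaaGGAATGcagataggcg
Tead3: cggccgggctCATTCCgtaCATTCCg

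Lats1 (ENSMUSG00000040021, chromosome 10), the kinase that phosphorylates YAP and TAZ, was at 10.71, 10.46 and 10.46 in control and 10.68, 10.74 and 10.87 in Uba3 cKO replicates. Control replicate 1 overlapped the Uba3 cKO range. The difference was 0.22 (SE 0.10), and Lats1 was not called.

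Yap1 (ENSMUSG00000053110, chromosome 9) was at 12.70, 12.36 and 12.59 in control and 12.83, 12.69 and 12.83 in Uba3 cKO replicates. Uba3 cKO replicate 2 lay just under control replicate 1, and all other Uba3 cKO values were above the control range. The difference was 0.24 (SE 0.10, 95% interval 0.02 to 0.45), and after adjustment over all genes Yap1 was not called. Yap1 minus Lats1 on the log2 scale averaged 2.01 ± 0.12 (SD, n = 3) among controls and 2.02 ± 0.12 (SD, n = 3) among knockouts. An annotated transcript on the opposite strand, Gm20416, shares 1.25% of the exon bases of Yap1, and no source used here gives the strand setting of the counting.

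Wwtr1 (ENSMUSG00000027803, chromosome 3), which encodes TAZ, was the member with the widest spread within groups. It was at 8.98, 8.85 and 8.47 in control and 8.74, 8.97 and 8.45 in Uba3 cKO replicates. The difference was -0.04 (SE 0.15, 95% interval -0.36 to 0.27), so changes within this interval could not be told from none. On the per-kilobase scale Yap1 made up 87.6% ± 2.27 (SD, n = 3) of the sum of both coactivators in control, against 89.5% ± 2.16 (SD, n = 3) in Uba3 cKO libraries.

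None of the 3 TEAD genes tested was called. Tead1 (ENSMUSG00000055320, chromosome 7) was at 9.27, 9.16 and 9.16 in control and 9.13, 9.31 and 9.03 in Uba3 cKO replicates, a difference of -0.04 (SE 0.10, 95% interval -0.27 to 0.18). Tead2 (ENSMUSG00000030796, chromosome 7) was at 7.30, 7.22 and 7.49 in control and 7.33, 7.52 and 7.43 in Uba3 cKO replicates, a difference of 0.09 (SE 0.10, 95% interval -0.13 to 0.32). Tead3 (ENSMUSG00000002249, chromosome 17) was at 5.01, 5.02 and 5.19 in control and 5.14, 4.93 and 5.03 in Uba3 cKO replicates, a difference of -0.04 (SE 0.07, 95% interval -0.19 to 0.12). The groups overlapped for each of these genes.

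Tead4 (ENSMUSG00000030353, chromosome 6), the TEAD factor required for trophectoderm formation, was near the floor of the table in these oocytes. Its value was 1.93, 1.97 and 1.92 in control and 1.94, 1.95 and 1.98 in Uba3 cKO replicates, under the filter in every library. Values this low are compressed in the deposited table, so no difference could be read for Tead4.

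The TEAD family was thus led by Tead1 and Tead2 in both groups. On the per-kilobase scale, Tead1 made up 52.1% ± 2.79 (SD, n = 3) of the TEAD sum in control, against 50.05% ± 1.84 (SD, n = 3) in Uba3 cKO libraries, and Tead2 40.6% ± 2.59 (SD, n = 3) and 42.8% ± 1.65 (SD, n = 3). Tead3 made up 6.03% of the control sum and Tead4 1.28%, a rough share because values as low as those of Tead4 are compressed. Exon length pooled all annotated transcripts of a gene, 13570 bases for Tead1 and 4788 for Tead2. Levels and shares per kilobase thus depend on which transcripts the oocytes hold. The TEAD sum itself averaged 83.2 ± 3.57 (SD, n = 3) among controls and 84.1 ± 5.66 (SD, n = 3) among knockouts.

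Across all members, Yap1 had the highest level per kilobase, at 651 ± 77.7 (SD, n = 3) among controls and 764 ± 42.8 (SD, n = 3) among knockouts. In control it was followed by Lats1 at 205 ± 20.9, Amotl1 at 133 ± 2.07, Amot at 96.8 ± 6.18, Wwtr1 at 92.0 ± 16.3, Tead1 at 43.3 ± 2.02, Tead2 at 33.8 ± 3.31, Amotl2 at 26.8 ± 2.42, Tead3 at 5.02 ± 0.349 and Tead4 at 1.07 ± 0.0196 (SD, n = 3 each). Library values of neighbours in this order overlapped only for Amot and Wwtr1. The order of the means was the same in Uba3 cKO libraries. There Amot, at 161 ± 17.1 (SD, n = 3), no longer overlapped Wwtr1 (89.2 ± 15.8) and overlapped Amotl1 (180 ± 13.6).

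**Figure D3:**
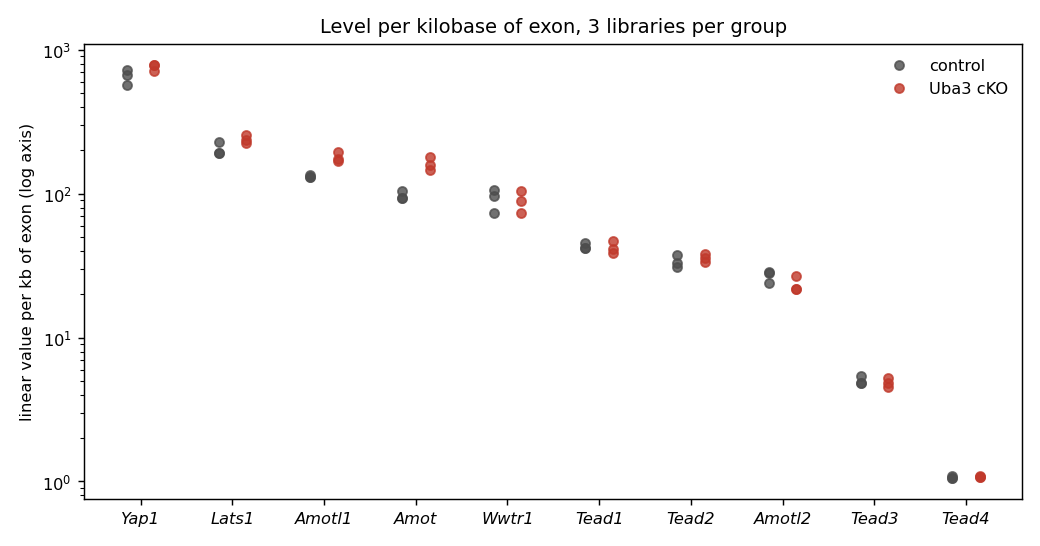
Linear value per kilobase of annotated exon (log axis) of the 10 genes in 3 control (grey) and 3 Uba3 cKO (red) libraries, ordered by the control mean. Values run from 567 to 789 for Yap1 down to 1.05 to 1.09 for Tead4.

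The other genes of the pathway were grouped into 7 lists that leave out the members. Of 102 kept genes, each counted once, 5 rose and 1 fell, a share of 5.88% where 8.14% of all tested genes were called. Their median difference was 0.01, against -0.01 over all tested genes. The risers were Taok1, Wwc1, Nedd4l, Vgll1 and Tfap2c, the last from the list of trophectoderm genes.

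In the core kinase module, 1 of 17 kept genes rose and 1 fell, with a median of 0.02 (-0.02 to 0.06 with any 1 library left out). Taok1, a kinase that activates the MST kinases, rose from 13.97 ± 0.12 (SD, n = 3) to 14.45 ± 0.04 (SD, n = 3), by 0.48 (SE 0.08, adjusted p = 0.0022 in limma). Stk3, which encodes the MST2 kinase upstream of LATS, fell. It was at 11.34, 11.58 and 11.55 in control and 11.02, 10.95 and 11.27 in Uba3 cKO replicates, a difference of -0.41 (SE 0.11, adjusted p = 0.0300 in limma). Stk3 lost its call when control 2, control 3, knockout 1 or knockout 2 was left out (adjusted p as high as 0.129) and when the intensity trend was dropped. Lats2, the second LATS kinase, was not called, with a difference of -0.09.

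Among 23 kept upstream scaffolds and polarity genes, Wwc1 rose and no other gene was called, with a median of 0.06. Wwc1 encodes KIBRA, a scaffold that brings LATS to its activators. It was at 9.74, 9.24 and 9.51 in control and 10.22, 10.08 and 10.02 in Uba3 cKO replicates, and rose by 0.61 (SE 0.12, adjusted p = 0.0085 in limma). It was called with any 1 library left out.

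Ubiquitin ligases of the NEDD4 family bind angiomotins and can mark them for degradation. Of 17 kept ubiquitin and ADP-ribose regulators, Nedd4l rose and no other gene was called, with a median of 0.04. Nedd4l was at 10.88, 10.86 and 10.94 in control and 11.48, 11.36 and 11.34 in Uba3 cKO replicates, a rise of 0.50 (SE 0.09, adjusted p = 0.0040 in limma). It was called with any 1 library left out. Itch, another ligase of that family, had a difference of -0.11, and Rnf146, a ligase that acts on angiomotins marked by tankyrases, had -0.02.

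None of the 22 kept genes listed as negative regulators of the core kinases was called by limma. Of these, 3 had an unadjusted p under 0.05, as did 22.8% of all tested genes. Their median difference over the list was -0.04. The list is a working group, and not every gene on it need act against the kinases. The highest levels by log2 value were those of Strn, a scaffold of the STRIPAK phosphatase complex (14.97 in control, difference -0.06), and Stk25 (12.24 in control, difference -0.19). Among the VGLL cofactors, which bind TEAD factors, Vgll1 rose by 0.43 (SE 0.11, adjusted p = 0.0332 in limma) and the other 2 kept genes were not called. Vgll1 lost its call when control 1, control 3, knockout 1 or knockout 3 was left out (adjusted p as high as 0.124).

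Genes known as targets of YAP and TAZ in other cells did not pass the test. None of 18 kept targets was called by limma, and 2 had an unadjusted p under 0.05, as did 22.8% of all tested genes. Their median difference was -0.03, and it was -0.15 when control 2 was left out, -0.11 when knockout 2 was left out and -0.11 with sample weights. Of the 18 targets, 5 had a difference above 0, as did 8418 of all 17450 tested genes. Groups stood apart with Uba3 cKO lower in 4 targets and higher in 0, against 12.8% and 15.1% of all tested genes. Whether the targets shifted as a set was not tested. The highest levels by log2 value were those of Tgfb2 (13.80 in control, difference 0.13, SE 0.09) and Dock5 (11.67 in control, difference 0.12, SE 0.11), which are among those 5. Ccn2, a connective tissue growth factor and one of the best-known targets, was at 9.16, 8.71 and 9.89 in control and 9.05, 9.54 and 9.25 in Uba3 cKO replicates, with groups that overlapped. It was chosen for its role as a defining target after its values were seen, as was Ccn1 (difference -0.12, adjusted p = 0.394 in limma). Rbms3 was closest to the threshold, with a difference of -0.31 (adjusted p = 0.0517 in limma), and was also named after its value was seen. It was called lower under 7 of the 17 alternatives, the stricter filter, median centring and quantile normalization among them (adjusted p from 0.0185 to 0.171 over all of them).

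**Figure D4:**
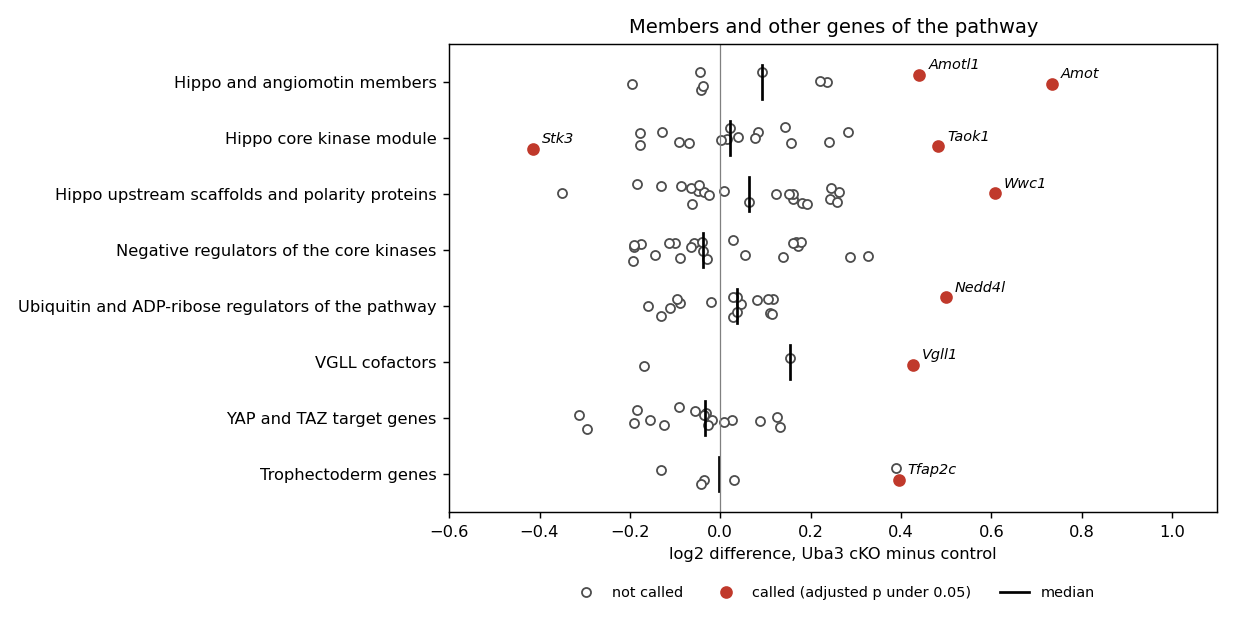
Log2 difference, Uba3 cKO minus control (x axis), of each kept gene in the member list and in the 7 lists of other pathway genes. Filled red points were called at an adjusted p under 0.05, open points were not, and vertical bars are list medians, which lie between -0.04 and 0.15.

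Markers of other cells differed between the same libraries. Of 14 kept theca and stroma markers 6 fell and none rose, with a median of -0.48. They included Col3a1 (-0.62), Dcn (-0.51) and Acta2 (-0.74). Summed as linear values, these markers ranged from 3752 to 5885 in control and from 2670 to 3402 in Uba3 cKO libraries. The granulosa and cumulus list had 13 kept genes, of which 2 rose (Kitl by 0.44, Fshr by 0.42) and Inhba fell (-0.69), with sums of 20091 to 23669 in control and 17155 to 22719 in Uba3 cKO. Of 7 endothelial markers Tie1 (-0.59) fell, with sums of 3697 to 4036 and 3771 to 4290, and of 8 blood and immune markers C1qb (-0.35) and Hbb-bs (-0.36) fell, with sums of 587 to 702 and 538 to 589. Among named markers, Col3a1, Dcn and Tie1 were called with any 1 library left out. The calls of Acta2, Inhba, Kitl and Fshr each ended without control 2. They also ended without control 3 or knockout 3 for Acta2, without knockout 3 for Inhba, without control 3, knockout 1 or knockout 3 for Kitl and without control 1, knockout 1 or knockout 2 for Fshr. That of Hbb-bs ended without controls 1 or 3 or knockouts 1 or 3, and those of Acta2, Inhba and Hbb-bs ended also when the intensity trend was dropped. The call of C1qb ended under 11 of the 17 alternatives, which were a pseudocount of 5, no filter, the replicate block, both length and GC corrections and the omission of any 1 library. No marker was listed at 0, and Ptx3 and C1qa were under the filter.

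The theca and stroma markers were lowest in the group where Amot and Amotl1 were highest. Averaged over the list, each library's distance from its gene means was -0.05, 0.33 and 0.39 for controls 1, 2 and 3, against -0.20, -0.16 and -0.32 for the knockouts. Control replicate 1 was closest to the Uba3 cKO libraries for these markers. It also had the highest Amot value of the controls, 9.77 against 9.60 and 9.62 in controls 2 and 3, with 10.26 or more in every Uba3 cKO library. Uba3 cKO replicate 3 was lowest for these markers and had the highest Amotl1 value, 10.94. The order differed for Amotl1 among controls and for Amot among knockouts. Control replicate 3, highest for these markers, had the highest Amotl1 value of the controls, 10.41. Amot was highest in Uba3 cKO replicate 1, at 10.56, against 10.38 in replicate 3. Amotl2 and the YAP and TAZ targets are also expressed by stromal and endothelial cells, and Amot and Amotl1 may be too. The part that such cells, or granulosa and cumulus cells, have in the values of any member was not tested. In bulk libraries fewer cells of a type and less RNA per cell cannot be told apart. Among the 12 oocyte markers, Zp2 (-0.30) and Bmp15 (-0.25) fell and Dazl (0.40) rose, with sums of 398252 to 455312 in control and 352311 to 394846 in Uba3 cKO. Zp2 lost its call without control 3 and under quantile normalization, and Dazl without controls 2 or 3 or knockouts 1 or 3, under median centring and when the intensity trend was dropped. Bmp15 lost its call under 11 of the 17 alternatives, which were a pseudocount of 5, the stricter filter, median centring, quantile normalization, no intensity trend, the replicate block and the omission of any library other than control 3. Quantile normalization left Bmp15 no difference, because its ranks among the genes matched between the groups. That loss was thus set by the method.

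The genes with library profiles most like those of Amot and Amotl1 were found as the smallest root-mean-square distance between values centred on each gene's mean, over 6 libraries and 14049 kept genes with a symbol. For Amot these were Htra1 (0.06 log2 units), Dpf3 (0.07) and Slc28a3 (0.07), with differences of 0.71, 0.66 and 0.78. For Amotl1 these were Slc19a3, Col22a1 and Daxx (0.04 each), with differences of 0.48, 0.42 and 0.37. The likeness includes the difference between the groups, so it is a description only.

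**Figure D5:**
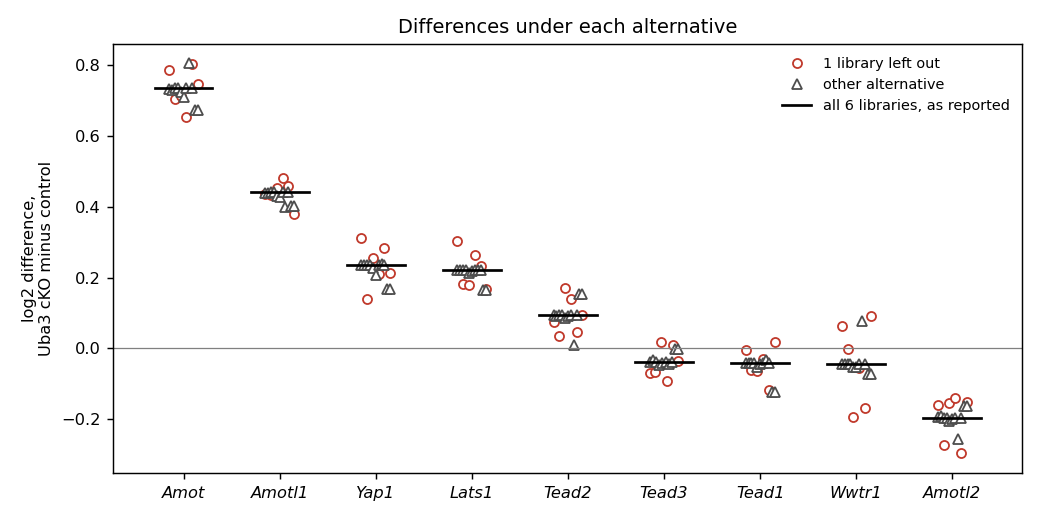
Log2 difference, Uba3 cKO minus control, of the 9 tested members with all 6 libraries (black bars), with 1 library left out (red circles) and under the other alternatives (grey triangles). Amot stays between 0.65 and 0.80 and Amotl1 between 0.38 and 0.48, while the values of Wwtr1, Tead1 and Tead3 lie on both sides of 0.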

How the data were processed

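The deposited table holds log2 values that the authors normalized between libraries. Per the submitters' processing notes the tools were fastp, STAR, featureCounts and DESeq2 and the build was GRCm39, with no versions or settings. The log2 unit was inferred from the numbers (lowest 0.0363, highest 18.01). Spread shrinks at low levels, so differences of genes at low levels may be understated. No counts were used, and depth is unknown, so counting intervals are left out. Symbols, chromosomes and exon lengths came from GENCODE M21, which matched 27660 of 28738 IDs (96.2%).

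Genes with a linear value of 10 or more in at least 3 of 6 libraries (17450) were fitted with limma 3.58.1 (R 4.3.3), using an intensity trend and Benjamini-Hochberg adjustment over all of them. Every adjusted p comes from limma. Data were also simulated for this comparison over 17450 genes, with a small set of genes shifted and independent noise. The fit found 20% of the genes shifted by 0.3 log2 units, 74% of those shifted by 0.6, 94% of those shifted by 1 and 98% of those shifted by 1.5, with 2 false calls among 145. The simulation held no deviations shared by genes within a library, so these rates may not hold for the real libraries.

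The members and all lists were chosen with earlier results of these data known. Beside the members, up to 3 called genes per direction with the smallest adjusted p were named from each list, or the 2 with the highest level where none was called. Genes named outside this rule include Lats2, Itch, Rnf146, Gdf9, Zp3, Cdx2 and Eomes, given for their roles after their values were seen. Ptx3 and C1qa were named as markers under the filter, and others are marked in the text. The YAP and TAZ target Ankrd1 was not matched. A search of protein sequences had been planned and was not run, because no protein table was used here.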

Additional observations from a re-analysis of the deposited data

How the results depend on the processing

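Amot was called higher under all 17 alternatives, with differences from 0.65 to 0.80. Amotl1 was called under 16 of them, and with libraries left out in turn the number of members called was 1 to 2. Over all genes, 1421 calls became 2298 with sample weights and 518 at an adjusted p under 0.01. Leaving out 1 library gave 618 to 1637 calls, with 618 without control replicate 3, 681 without Uba3 cKO replicate 1, 709 without Uba3 cKO replicate 3 and 780 without control replicate 2. Among other pathway genes, the 6 calls became 12 with sample weights and 3 to 9 with 1 library left out, with 3 without control replicate 3 or Uba3 cKO replicate 1. Among markers, the 15 calls became 7 without the intensity trend and 5 to 17 with 1 library left out. Without control replicate 1 the counts rose, to 1637 over all genes, 9 among other pathway genes and 17 among markers. Each refit with 1 library left out had fewer samples. The cause of these shifts was not tested. Same-numbered libraries did not deviate together (Pearson's r of -0.09, -0.20 and -0.05 across kept genes for replicates 1, 2 and 3), so the numbers were not taken as pairs. Between libraries of different number r ran from -0.20 to 0.28. It was positive for control 1 with knockout 2 (0.28), control 2 with knockout 3 (0.25) and control 3 with knockout 1 (0.19). All other pairs had a negative r. The replicate block joined same-numbered libraries only. Whether libraries were linked across numbers was not tested. With the replicate block 1258 genes were called, and with a length and GC correction, chosen after seeing the data, 1422, or 1252 when combined with the block. With that correction Amot differed by 0.67 and Amotl1 by 0.40. Unknown depth limits what can be said of Tead3 and Tead4.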

Other observations

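Genes of the trophectoderm, the embryonic lineage that TEAD4 and YAP specify, were mostly low or not called in these oocytes. Of 10 such genes, 6 passed the filter and 1 was called, where 8.14% of all tested genes were called. Tfap2c, a transcription factor of that lineage, rose from 9.77 ± 0.16 (SD, n = 3) in control to 10.17 ± 0.03 (SD, n = 3) in Uba3 cKO oocytes, by 0.39 (SE 0.10, adjusted p = 0.0328 in limma). Its call ended with any 1 library left out except control replicate 1 (adjusted p up to 0.113). Cdx2 and Eomes were under the filter, at 3.12 and 2.12 in control and 3.16 and 2.10 in Uba3 cKO. Named after its value was seen, Dab2, an endocytic adaptor, had a difference of 0.39 and was not called (adjusted p = 0.0641 in limma). Its groups did not overlap, as was so for 27.9% of all tested genes, 15.1% with Uba3 cKO higher.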
